A study of Mus musculus with 12 samples.

Results

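Tight junction genes were examined in RNA sequencing of mouse retinal pigment epithelium (RPE), the pigmented cell layer behind the neural retina. The 9 genes were taken by symbol from the authors' table of 13942 genes: the claudins Cldn1, Cldn2, Cldn3, Cldn10, Cldn12 and Cldn19, occludin (Ocln), Marveld2 (tricellulin) and Tjp1 (ZO-1). All 9 were present, and all 9 passed the filter for testing, a value above the table's floor of 50 in at least 3 of the 12 libraries. That filter left 13523 genes. The libraries fall into 4 groups of 3: postnatal day 5 (P5) with a conditional knockout (cKO) of Sox9, P5 wild type (WT), embryonic stage E15.5 with the cKO, and E15.5 WT. All are of strain C57BL/6J. SOX9 is a transcription factor, and the design asks how RPE transcripts differ without it at each age. The sources used here do not give the Cre line, the deleted exons, the number of animals per library or the way RPE was isolated.

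Tight junctions join neighbouring epithelial cells near their apical border and limit what passes between them. Claudins span the membrane and form the strands: some seal, and others, such as claudin-2, form channels for small cations and water. Occludin sits in the same strands, tricellulin gathers where 3 cells meet, and ZO-1 is the cytoplasmic scaffold that ties the strands to actin. In the RPE this seal is the outer blood-retinal barrier, between the choroidal vessels and the photoreceptors.

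The sequences just before the transcription starts are shown for Cldn1 and Cldn2, whose values followed each other most closely, for Ocln, and for Cldn3, which went the other way with age. Each run is the 250 bases before the RefSeq start, 5′ to 3′ on the strand of the gene, in build GRCm38.p6. Entries for all 9 genes were found in RefSeq. Capitals mark a match to 1 of 7 short motifs.
Cldn1, chr16:26371840-26372089, minus strand: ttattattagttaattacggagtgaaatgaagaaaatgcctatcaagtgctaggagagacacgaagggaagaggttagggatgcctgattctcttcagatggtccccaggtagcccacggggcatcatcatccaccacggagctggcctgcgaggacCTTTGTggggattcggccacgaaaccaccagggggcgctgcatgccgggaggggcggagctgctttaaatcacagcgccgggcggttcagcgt
Cldn2, chrX:139800558-139800807, plus strand: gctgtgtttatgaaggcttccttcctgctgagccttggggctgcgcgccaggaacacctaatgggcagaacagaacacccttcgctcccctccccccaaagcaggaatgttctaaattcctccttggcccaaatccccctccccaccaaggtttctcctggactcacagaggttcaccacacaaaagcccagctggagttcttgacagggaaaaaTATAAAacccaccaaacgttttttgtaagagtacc
Ocln, chr13:100552719-100552968, minus strand: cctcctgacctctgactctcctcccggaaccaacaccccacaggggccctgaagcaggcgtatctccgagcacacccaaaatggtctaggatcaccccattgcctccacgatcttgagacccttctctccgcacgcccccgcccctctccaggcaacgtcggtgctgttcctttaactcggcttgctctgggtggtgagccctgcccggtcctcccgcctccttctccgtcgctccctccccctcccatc
Cldn3, chr5:134985964-134986213, plus strand: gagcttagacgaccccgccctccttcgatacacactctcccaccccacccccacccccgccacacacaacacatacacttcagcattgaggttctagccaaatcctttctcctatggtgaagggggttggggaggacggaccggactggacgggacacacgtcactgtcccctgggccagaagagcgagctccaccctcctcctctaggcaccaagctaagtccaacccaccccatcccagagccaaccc

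The motifs were searched on both strands of 300-base windows, from 250 bases before to 50 bases after each start. They were the E-boxes CATGTG and CACGTG, of the kind MITF binds, ACAATG and ACAAAG of the SOX type, TAATCC of the OTX type, the grainyhead centre ACCGGT and the TATA box TATAAA. No match overlapped another. The Cldn1 window held ACAAAG on the opposite strand, its first base at position -93 from the start. Of 32851 promoter windows in the table, 18.7% held that motif. The Cldn2 window held TATAAA at position -35 on the gene's own strand, a motif found in 13.6% of windows. The Cldn10 window held CATGTG at -207 (14.2% of windows) and ACAAAG at -74, and that of Marveld2 held TATAAA at -223. The windows of Ocln, Cldn3, Cldn12, Cldn19 and Tjp1 held none of the 7, which says only that these letters are not in these windows. For each gene 1 listed start was used, the nearest to its GENCODE start. Ocln, Cldn10, Cldn19 and Marveld2 had 2 listed starts and Cldn12 had 3. The Tjp1 window (chr7:65371195-65371494) lies well inside the gene, whose GENCODE start on the minus strand is 65527781. Of the other motifs, CACGTG occurs in 7.15% of all windows, ACAATG in 12.6%, TAATCC in 7.06% and ACCGGT in 2.33%, and none was in a window of the 9 genes. CpG pairs numbered 15 for Cldn1, 5 for Cldn2, 17 for Ocln, 9 for Cldn3 and 31 for Tjp1.

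In GENCODE M21 (GRCm38), Ocln (chromosome 13, 100496507 to 100552718, minus strand) and Marveld2 (chromosome 13, 100595957 to 100616971, minus strand) lie 43238 bases apart with 0 protein-coding genes between them. Cldn3 (chromosome 5, 134986214 to 134987472, plus strand) lies 39279 bases from Cldn4, also with 0 between. Cldn1 spans 26356642 to 26371841 on chromosome 16, minus strand, Cldn2 139800828 to 139811386 on the X chromosome, plus strand, and Tjp1 65296165 to 65527781 on chromosome 7, minus strand. An antisense gene overlaps an exon of Cldn3 (Wbscr25) and of Cldn19 (Gm12927). Whether counting used strand is not given in the sources used here, so reads of these genes and of their antisense partners cannot be told apart.

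Some facts of the series bear on every result below. The values are gene counts that the authors quantile-normalised, so every library has the same median of 367.4 and depth cannot be read from them. Values below 50 are listed as 50, which limits any low gene to an upper bound. Sox9 itself was not lower under the cKO label. It averaged 2482.5 ± 405 in P5 libraries labelled cKO against 1192 ± 277 in P5 WT libraries (SD, n = 3 each; log2 fold change 1.07 ± 0.17 SE, limma adjusted p = 0.0316). At E15.5 it averaged 1010 ± 22.3 in libraries labelled cKO against 1049 ± 113 in WT libraries (n = 3 each; log2 fold change -0.05, adjusted p = 1). Reads outside the deleted part would say nothing of the deletion, and that part is not known here, so libraries are called by their label throughout. Whether the P5 labels are exchanged was not tested, and an exchange would turn the sign of every P5 genotype difference given below. Of 17 RPE genes, 1 was at the floor in each P5 library labelled cKO, 0 in P5 WT libraries, and 4 or 5 in each E15.5 library. Tyrp1, Pmel, Dct, Mitf and Otx2 were well above the floor in all 12 libraries, while Rgr, Kcnj13 and Lrat were at the floor in all 6 E15.5 libraries. Rgr, an opsin-like protein of RPE, lay between 93.2 and 203.5 in P5 libraries labelled cKO against 6783.8 to 14597.2 in P5 WT libraries. Rpe65, the retinoid isomerase of mature RPE, was at the floor in every P5 library labelled cKO, lay between 177.8 and 563.7 in P5 WT libraries and was at the floor throughout E15.5.

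The P5 libraries differed in content. P5 WT replicate 3 stood apart, with the highest photoreceptor level and the lowest melanosome level of the 6. The mean of 18 photoreceptor genes on the log2(value + 1) scale was 7.02, 10.2 and 9.24 in P5 libraries labelled cKO against 7.0003, 8.13 and 11.1 in P5 WT libraries. The mean of 7 melanosome genes of pigment cells was 12.5, 12.3 and 12.8 in P5 libraries labelled cKO against 13.0, 13.0 and 11.5 in P5 WT libraries. Means of 12 lens genes were 8.68, 8.39 and 9.24 in P5 libraries labelled cKO against 7.57, 8.79 and 6.22 in P5 WT libraries. Means of 13 skeletal muscle genes were 11.9, 11.8 and 10.6 in P5 libraries labelled cKO against 11.7, 10.2 and 9.49 in P5 WT libraries. The mesenchyme gene Col1a1 lay between 141240 and 274806 in P5 libraries labelled cKO and between 169720 and 274806 in E15.5 WT libraries. The levels given below are thus those of whole samples, not of RPE alone. In such bulk samples, fewer cells of a type and less RNA per cell cannot be told apart.

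Of the 9 genes, Cldn1 had the highest mean level at P5 and Tjp1 at E15.5. Per kilobase of exon, Cldn1 averaged 651 ± 214 in P5 libraries labelled cKO, followed by Cldn2 at 343 ± 90.2 and Tjp1 at 181 ± 36.6 (SD, n = 3), and the ranges of these 3 genes did not overlap. In P5 WT libraries, Cldn1 averaged 340.2 ± 190 per kilobase, Tjp1 205 ± 13.1, Cldn2 129 ± 70.9 and Cldn12 77.0 ± 8.26. There Cldn1 overlapped Tjp1, and Cldn2 overlapped Cldn12. At E15.5 the order differed. Per kilobase, Tjp1 averaged 244 ± 9.57 in E15.5 libraries labelled cKO, Cldn3 169 ± 34.4, Cldn12 85.2 ± 8.23, Cldn1 65.6 ± 0.459 and Cldn2 29.3 ± 2.24, with no overlap between neighbours among these. The same 5 came in the same order in E15.5 WT libraries, at 238 ± 23.7 for Tjp1, 192 ± 25.8 for Cldn3, 96.3 ± 4.27 for Cldn12, 78.6 ± 20.2 for Cldn1 and 32.6 ± 12.5 for Cldn2, with Cldn12 and Cldn1 overlapping. Ocln per kilobase was 59.3 ± 13.1 in P5 libraries labelled cKO, 29.6 ± 14.6 in P5 WT libraries, 16.7 ± 1.997 in E15.5 libraries labelled cKO and 17.8 ± 1.35 in E15.5 WT libraries. Cldn10, Cldn19 and Marveld2 stood at or near the floor in most libraries, where a level per kilobase is only an upper limit set by gene length.

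**Figure D1:**
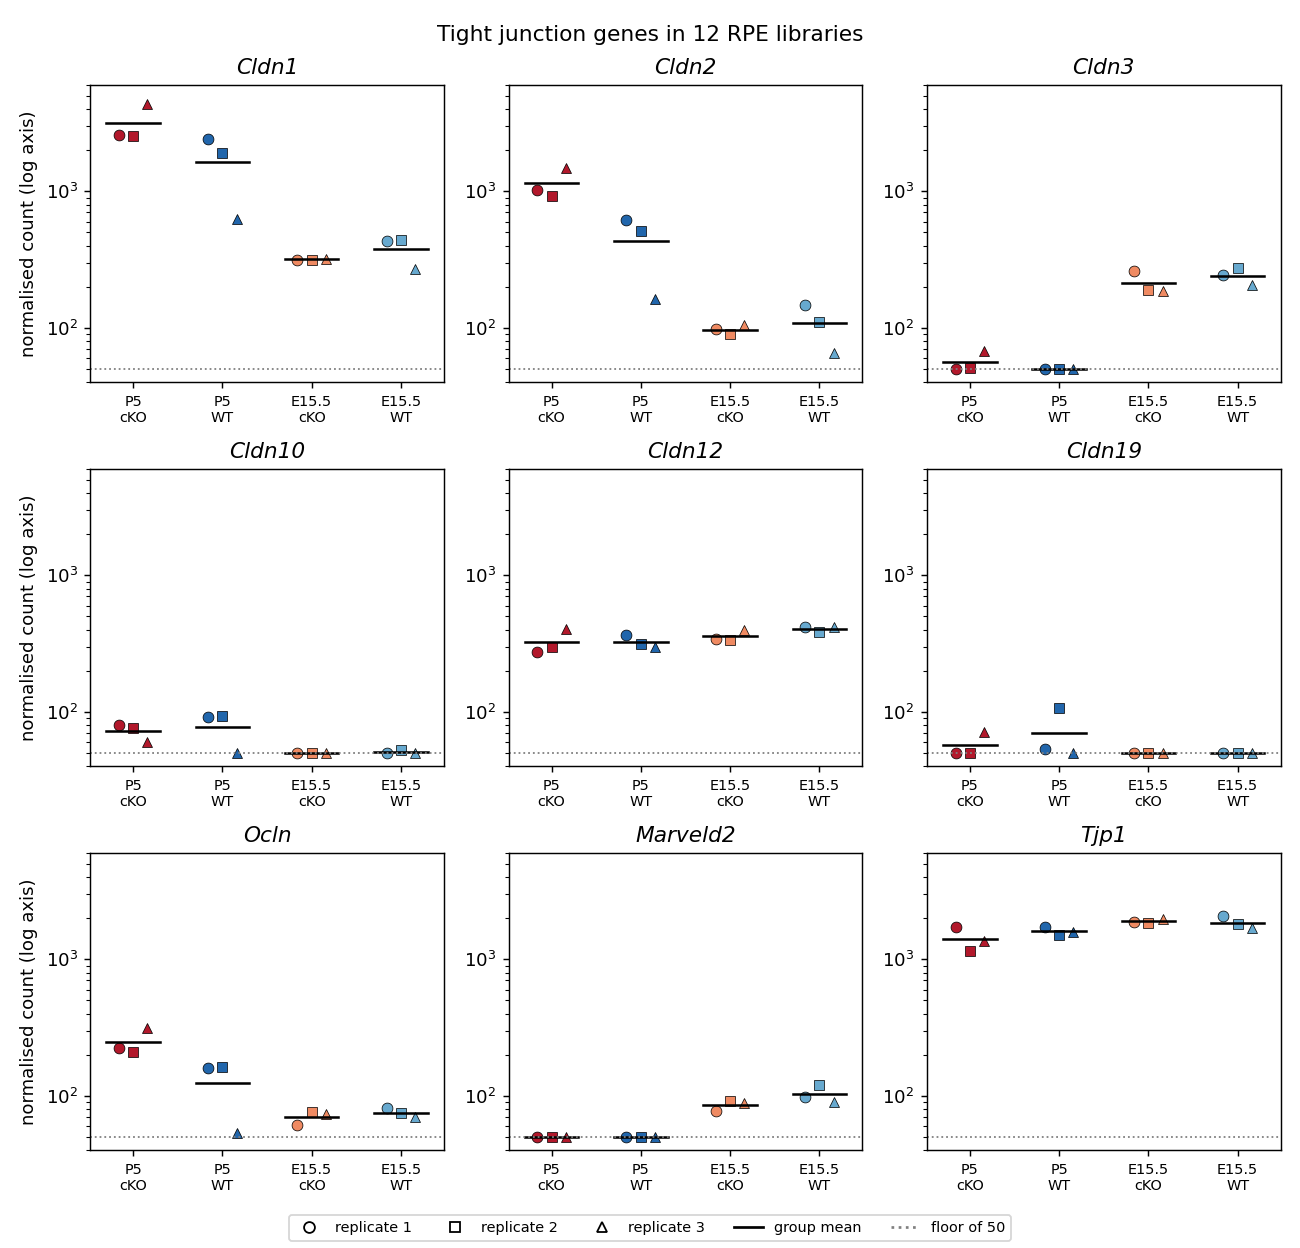
Values of the 9 genes in each of the 12 libraries (points) and group means (bars) on a log axis, in quantile-normalised counts, with the floor of 50 dotted. Cldn1 and Cldn2 are highest in the 3 P5 libraries labelled cKO, Cldn3 and Marveld2 are above the floor at E15.5 and at or near it at P5, and Tjp1 and Cldn12 stay within a narrow band.

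At P5, Cldn2, Cldn1 and Ocln were higher in each of the 3 libraries labelled cKO than in any of the 3 WT libraries, by 1.91-fold to 2.66-fold in the means, but 0 of the 9 genes passed the test over all genes. The other 6, among them the scaffold Tjp1, overlapped between genotypes. Among all 13523 genes, 0.244% were called in this comparison, and 3.45% stood higher in every library labelled cKO than in every WT library. At an unadjusted limma p under 0.05 there were 3 of the 9, the same Cldn1, Cldn2 and Ocln, against 7.68% of all genes.

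Cldn1, the claudin whose loss opens the epidermal barrier in mice, had values of 2579.6, 2529.6 and 4349.0 in P5 libraries labelled cKO against 2415.8, 1895.1 and 630.5 in P5 WT libraries. The lowest cKO value lay just above the highest WT value, and WT replicate 3 was far below the rest. The log2 fold change was 1.10 ± 0.43 (SE; limma adjusted p = 0.575). Cldn2, the cation and water channel, had values of 1019.3, 921.8 and 1483.2 in P5 libraries labelled cKO against 613.7, 511.8 and 163.8 in P5 WT libraries. Here the groups stood further apart, and the same WT library was lowest. The log2 fold change was 1.58 ± 0.45 (limma adjusted p = 0.341). Ocln had values of 225.8, 211.4 and 313.5 in P5 libraries labelled cKO against 159.4, 161.9 and 53.8 in P5 WT libraries. Again cKO replicate 3 was the highest of the 6 and WT replicate 3 the lowest. The log2 fold change was 1.13 ± 0.36 (limma adjusted p = 0.424). An exact permutation test of 3 against 3 gave p = 0.1 for each of these genes, two-sided, the smallest it can give.

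The differences were smaller without WT replicate 3. The log2 fold changes were then 0.51 for Cldn1, 0.99 for Cldn2 and 0.61 for Ocln, with limma adjusted p = 0.468, 0.268 and 0.255. With lens level as a covariate they were 0.28, 0.71 and 0.42. The 12 lens genes had a median log2 fold change of 1.20 between P5 libraries labelled cKO and WT, with 0 called. This fit therefore cannot fully separate their level from genotype. With limma's library weights they were 0.47 for Cldn1, 0.94 for Cldn2 and 0.47 for Ocln. With the photoreceptor level as a covariate, Cldn2 was called (1.61, adjusted p = 0.0466), and Cldn1 and Ocln were not (adjusted p = 0.117 and 0.0592). With the melanosome level as a covariate, a choice made after the values were seen, all 3 were called: adjusted p = 0.0492 for Cldn1, 0.00905 for Cldn2 and 0.0402 for Ocln. Over the 24 alternatives run, adjusted p ranged from 0.0492 to 1 for Cldn1, from 0.00905 to 0.9996 for Cldn2 and from 0.0402 to 1 for Ocln, and the fold changes kept their sign.

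Set against the melanosome genes of the same library, the 3 genes separated the genotypes more evenly. The measure is log2(value + 1) of the gene less the mean of the 7 melanosome genes, and it too was chosen after the values were seen. That mean was 13.0 in P5 WT replicates 1 and 2, above the 12.3 to 12.8 of P5 libraries labelled cKO, and 11.5 in P5 WT replicate 3. The measure is thus lowered in WT replicates 1 and 2 and raised in WT replicate 3 by the reference itself. For Cldn2 it was -2.52, -2.46 and -2.26 in P5 libraries labelled cKO against -3.70, -3.98 and -4.09 in P5 WT libraries. The gap between the groups was much wider than the spread within them, and WT replicate 3 lay near the other WT libraries. For Cldn1 it was -1.18, -1.002 and -0.71 in P5 libraries labelled cKO against -1.73, -2.09 and -2.16 in P5 WT libraries. For Ocln it was -4.69, -4.58 and -4.50 in P5 libraries labelled cKO against -5.64, -5.64 and -5.68 in P5 WT libraries. The group differences were 1.51 for Cldn2, 1.03 for Cldn1 and 1.06 for Ocln, each with exact permutation p = 0.1, two-sided. At E15.5 the same differences between cKO and WT libraries were 0.02 for Cldn2, -0.12 for Cldn1 and 0.01 for Ocln, with overlapping groups. In all, 8 such within-library differences were compared in 4 contrasts, and the lowest Benjamini-Hochberg adjusted exact p over the 32 tests was 0.16.

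The pair of claudins was also compared directly. Cldn2 less Cldn1 on the log2 scale was -1.34, -1.46 and -1.55 in P5 libraries labelled cKO against -1.98, -1.89 and -1.94 in P5 WT libraries, so Cldn2 stood closer to Cldn1 in every library labelled cKO. The difference was 0.48 (exact permutation p = 0.1, adjusted p = 0.16). Ocln less Cldn1 overlapped between P5 genotypes, with means of -3.62 ± 0.15 in libraries labelled cKO and -3.66 ± 0.22 in WT libraries (SD, n = 3 each; difference 0.04, exact permutation p = 0.8).

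**Figure D2:**
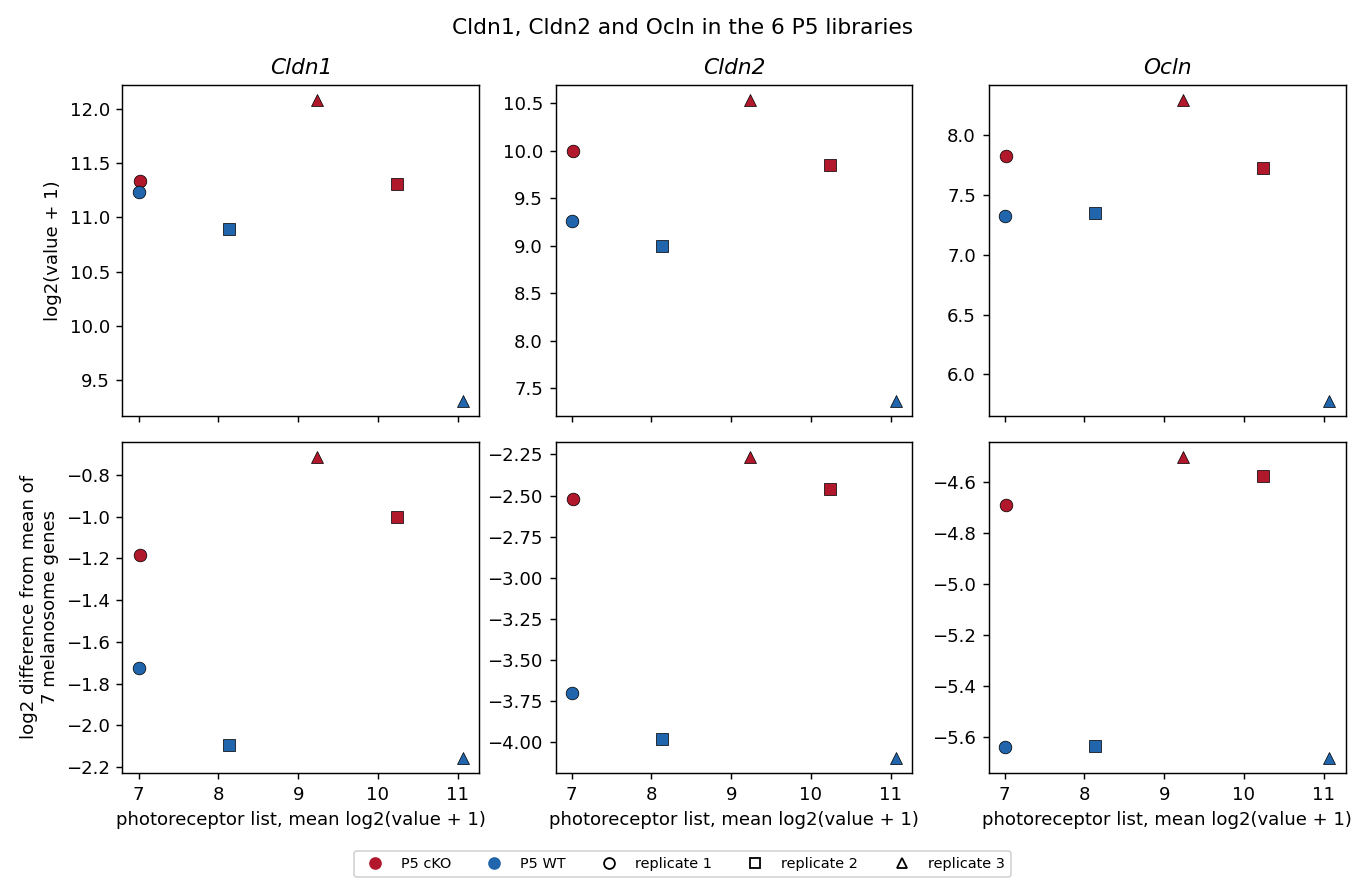
Cldn1, Cldn2 and Ocln in the 6 P5 libraries (red, cKO; blue, WT; symbols, replicate number) against the mean log2 level of 18 photoreceptor genes, as log2(value + 1) in the upper row and as the log2 difference from the mean of 7 melanosome genes in the lower row. WT replicate 3 is lowest in the upper row, and in the lower row the 3 WT libraries lie together below the 3 libraries labelled cKO.

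The remaining members showed no separation at P5. Tjp1 had values of 1720.0, 1154.1 and 1363.3 in P5 libraries labelled cKO against 1716.1, 1518.7 and 1572.8 in P5 WT libraries, a log2 fold change of -0.20 with a 95% interval from -0.50 to 0.10. Cldn12, which is expressed in many tissues, differed by -0.02 with an interval from -0.36 to 0.33. Cldn10, a claudin that forms ion-selective pores in kidney, had values of 79.8, 76.3 and 59.9 in P5 libraries labelled cKO against 91.8, 92.8 and 50 in P5 WT libraries. WT replicate 3, at the floor, lay below the cKO values, and the other WT libraries lay above them. Cldn19, a claudin of human RPE, was above the floor in 1 of 3 P5 libraries labelled cKO, at 70.9, and in 2 of 3 P5 WT libraries, at 53.2 and 106.7. It also marks Schwann cells, and the summed level of 11 Schwann cell and myelin genes was 7198 to 9063 in P5 libraries labelled cKO and 5654 to 11149 in P5 WT libraries. Their part in the Cldn19 values was not tested. Cldn3 reached at most 67.5 in P5 libraries labelled cKO and stayed at the floor in the 3 P5 WT libraries, and Marveld2 was at the floor in all 6.

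At E15.5, no difference between genotypes was called: of the 9 genes, 0 passed limma's test, 0 had an unadjusted p under 0.05, and 0 had groups that did not overlap. Over all genes, 0.00739% were called, 0.362% had an unadjusted p under 0.05 and 5.1% did not overlap. Cldn1 had values of 316.1, 316.0 and 319.9 in E15.5 libraries labelled cKO against 431.0, 443.0 and 268.0 in E15.5 WT libraries, and the tight cKO values lay inside the WT range. The 95% interval of its log2 fold change ran from -1.17 to 0.72. Cldn2 had values of 97.5, 89.7 and 104.6 in E15.5 libraries labelled cKO against 148.2, 111.4 and 65.1 in E15.5 WT libraries. Ocln was 60.8 to 76.3 in E15.5 libraries labelled cKO and 69.6 to 81.0 in E15.5 WT libraries, close to the floor.

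Whether the genotype difference changed with age was tested as an interaction, and 0 of the 9 were called (0.0592% of all genes). The interaction was 1.66 ± 0.64 on the log2 scale for Cldn2 (SE) and 1.23 ± 0.51 for Ocln, the 2 members with an unadjusted p under 0.05, against 2.65% of all genes. For Cldn1 it was 1.32 ± 0.61. The adjusted p by limma was 0.99999 for each of the 9, so no member's genotype difference was shown to change with age.

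With age, members were called in opposite directions. In libraries labelled cKO Cldn1, Cldn2 and Ocln rose, by 9.94-fold, 11.7-fold and 3.55-fold in the means, while Cldn3, Marveld2 and Tjp1 fell, and 3 were not called. In WT libraries Cldn1 and Cldn2 rose, by 4.33-fold and 3.97-fold, while Cldn3 and Marveld2 fell to the floor, and 5 were not called. Age moved a large share of all genes: 17.6% were called higher and 26.1% lower in libraries labelled cKO, and 15% higher and 23.2% lower in WT libraries. The 6 of 9 called in libraries labelled cKO compare with 43.7% of all genes. The 4 of 9 called in WT libraries are close to the 38.2% called there.

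Cldn1 lay between 2529.6 and 4349.0 in P5 libraries labelled cKO against 316.0 to 319.9 in E15.5 libraries labelled cKO (log2 fold change 3.26 ± 0.43 SE, limma adjusted p = 0.000224). In WT libraries it lay between 630.5 and 2415.8 at P5 against 268.0 to 443.0 at E15.5 (1.94 ± 0.43, adjusted p = 0.00525). The ages did not overlap in either genotype. Cldn2 lay between 921.8 and 1483.2 in P5 libraries labelled cKO against 89.7 to 104.6 in E15.5 libraries labelled cKO (3.51 ± 0.45, adjusted p = 0.000201). In WT libraries it lay between 163.8 and 613.7 at P5 against 65.1 to 148.2 at E15.5 (1.85 ± 0.45, adjusted p = 0.00883). The P5 library nearest to the E15.5 values was WT replicate 3 for both genes. Without it, the log2 fold changes in WT libraries were 2.52 for Cldn1 (adjusted p = 5.57e-05) and 2.44 for Cldn2 (adjusted p = 0.000165).

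Melanosome genes were also higher at P5. The summed level of the 7 was 79867 to 119934 in P5 libraries labelled cKO against 22613 to 38413 in E15.5 libraries labelled cKO, and 50591 to 121442 in P5 WT libraries against 27910 to 40393 in E15.5 WT libraries. Relative to their mean, Cldn1 was higher by 1.66 and Cldn2 by 1.91 on the log2 scale at P5 than at E15.5 in libraries labelled cKO, and by 0.51 and 0.43 in WT libraries (exact permutation p = 0.1 each). With the melanosome level as a covariate, both genes were still called in libraries labelled cKO. In WT libraries the calls were lost for Cldn1 (0.43, limma adjusted p = 0.347) and Cldn2 (0.22, adjusted p = 0.632). The mean log2 melanosome level was 11.5 to 13.0 in P5 WT libraries and 10.8 to 11.3 in E15.5 WT libraries. It separated the ages without overlap, so a call lost with it cannot tell this level from age. The call of Cldn2 in WT libraries was also lost with the mean level of 16 surface epithelium genes as a covariate (3.67, adjusted p = 0.0515). That level separated the ages too. Over the 24 alternatives the adjusted p in WT libraries ranged from 1.87e-07 to 0.347 for Cldn1 and from 2.21e-06 to 0.632 for Cldn2.

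Ocln rose in libraries labelled cKO, where it was 211.4 to 313.5 at P5 against 60.8 to 76.3 at E15.5 (1.80 ± 0.36, limma adjusted p = 0.00260). In WT libraries it was 53.8 to 161.9 at P5 against 69.6 to 81.0 at E15.5, and the groups overlapped (0.57 ± 0.36, adjusted p = 0.236). Without P5 WT replicate 3, Ocln was called in WT libraries too (1.09, adjusted p = 0.001002). The call in libraries labelled cKO was lost with the lens level as a covariate (0.60, adjusted p = 0.264) and with the melanosome level (0.45, adjusted p = 0.349). Both levels separated the ages without overlap in those libraries, so the lost calls cannot tell them from age. Over the alternatives the adjusted p of Ocln ranged from 1.94e-05 to 0.349 in libraries labelled cKO and from 1.03e-05 to 0.890 in WT libraries. Relative to the melanosome genes, Ocln at P5 differed from E15.5 by 0.20 in libraries labelled cKO on the log2 scale, with overlapping groups, and by -0.85 in WT libraries (exact permutation p = 0.1, the smallest possible).

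Cldn3, a sealing claudin of many epithelia, had values of 50, 51.2 and 67.5 in P5 libraries labelled cKO against 262.5, 189.8 and 185.3 in E15.5 libraries labelled cKO. In WT libraries it was at the floor of 50 in all 3 at P5, against 244.5, 272.3 and 207.5 at E15.5. No P5 library came near an E15.5 one. It was at least 3.78-fold lower in P5 libraries labelled cKO, of which 1 was at the floor (log2 fold change -1.89 ± 0.18, limma adjusted p = 3.68e-05). In P5 WT libraries it was at least 4.83-fold lower, taken against the floor (fitted -2.24, adjusted p = 1.44e-05). Marveld2, the gene of the tricellular protein, was listed at 50 in each of the 6 P5 libraries, against 77.4, 92.3 and 89.0 in E15.5 libraries labelled cKO and 97.8, 120.1 and 90.8 in E15.5 WT libraries. It was at least 1.72-fold lower in P5 libraries labelled cKO (adjusted p = 0.00108) and at least 2.06-fold lower in P5 WT libraries (adjusted p = 0.000256). Groups wholly at the floor show no spread of their own, which can make these limma p-values too small.

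Genes of surface epithelium moved with these falls. The summed level of 16 such genes was 2492.5 to 5272 in P5 libraries labelled cKO against 12795 to 18357 in E15.5 libraries labelled cKO, and 1186 to 4892 in P5 WT libraries against 10786 to 17377 in E15.5 WT libraries. Between 8 and 13 of the 16 were at the floor in each P5 library and 0 in any E15.5 library. Trp63, Epcam, Grhl2, Grhl3, Ehf, Esrp1, Dsc3 and Krt17 were at the floor in all 6 P5 libraries. Perp, a desmosome gene of the same list, went the other way in libraries labelled cKO, with 1459.6 to 2863.8 at P5 against 735.8 to 1012.2 at E15.5, and overlapped in WT libraries, with 354.8 to 1207.2 at P5 against 670.4 to 984.6 at E15.5. With this level as a covariate, the fall of Cldn3 was not called in libraries labelled cKO (-1.41, limma adjusted p = 0.0828) and was called in WT libraries. The fall of Marveld2 was called in neither (-0.59, adjusted p = 0.306 in libraries labelled cKO and -0.85, adjusted p = 0.147 in WT libraries). The mean log2 level of the 16 genes was 5.95 to 7.11 in P5 libraries and 8.37 to 9.28 in E15.5 libraries. Since the ages do not overlap in this level, a call lost with it cannot tell the level from age. The SE of Cldn3 in libraries labelled cKO went from 0.18 to 0.46 with this covariate. Over the alternatives the adjusted p ranged from 2.25e-05 to 0.0828 for Cldn3 in libraries labelled cKO, and for Marveld2 from 0.000419 to 0.306 there and from 3.06e-06 to 0.147 in WT libraries.

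Tjp1 changed little in size. It lay between 1154.1 and 1720.0 in P5 libraries labelled cKO against 1839.1 to 1985.4 in E15.5 libraries labelled cKO, with no overlap (log2 fold change -0.45 ± 0.14, limma adjusted p = 0.0225). In WT libraries it lay between 1518.7 and 1716.1 at P5 against 1698.0 to 2060.6 at E15.5, and the groups overlapped (-0.21 ± 0.14, adjusted p = 0.251). The call in libraries labelled cKO was lost in 9 of 24 alternatives. It was lost without P5 cKO replicate 2 (-0.31, adjusted p = 0.0794), P5 cKO replicate 3 (-0.43, adjusted p = 0.0660), E15.5 cKO replicate 1 (-0.46, adjusted p = 0.0539) and E15.5 cKO replicate 3 (-0.42, adjusted p = 0.0718), and without the P5 library of highest photoreceptor level in each genotype (-0.31, adjusted p = 0.0553). As covariates, the photoreceptor level gave -0.20 (adjusted p = 0.300), the lens level -0.49 (adjusted p = 0.145), the surface epithelium level -0.50 (adjusted p = 0.415) and the melanosome level -0.60 (adjusted p = 0.0748). Each of these levels separated the ages without overlap in libraries labelled cKO, so these fits cannot tell the levels from age. Over all alternatives the adjusted p ranged from 0.00255 to 0.415.

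The other 3 claudins were not called with age, apart from the alternatives given below. Cldn12 lay between 273.6 and 402.6 in P5 libraries labelled cKO against 337.3 to 400.2 in E15.5 libraries labelled cKO, with overlap. It lay between 297.0 and 364.5 in P5 WT libraries against 386.3 to 417.8 in E15.5 WT libraries, lower without overlap (-0.33 ± 0.16, limma adjusted p = 0.125). By such separation of the ages, 4 of the 9 genes were higher in libraries labelled cKO (23.8% of all genes) and 3 lower (34.1%), and in WT libraries 2 were higher (19.3%) and 3 lower (29.4%). Cldn10 lay between 59.9 and 79.8 in P5 libraries labelled cKO and at the floor in all E15.5 libraries labelled cKO (0.51, adjusted p = 0.0832). In P5 WT libraries it was above the floor in 2 of 3, and in E15.5 WT libraries in 1 of 3, at 53.0 (0.55, adjusted p = 0.0679). Without P5 WT replicate 3 both were called (adjusted p = 0.00692 in libraries labelled cKO and 0.000865 in WT libraries). Over the alternatives the adjusted p of Cldn10 ranged from 0.00256 to 0.988 in libraries labelled cKO and from 2.43e-06 to 0.999 in WT libraries. None of the 6 E15.5 libraries had Cldn19 above the floor. Cldn19 was called in WT libraries with library weights (0.99, limma adjusted p = 2.09e-05). With the surface epithelium level as a covariate, which separated the ages, it was called in WT libraries (adjusted p = 0.0406) and libraries labelled cKO (adjusted p = 0.0493). Cldn12 was called in 1 of 24 alternatives in WT libraries, library weights (-0.33, adjusted p = 0.00271), and in 0 in libraries labelled cKO.

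**Figure D3:**
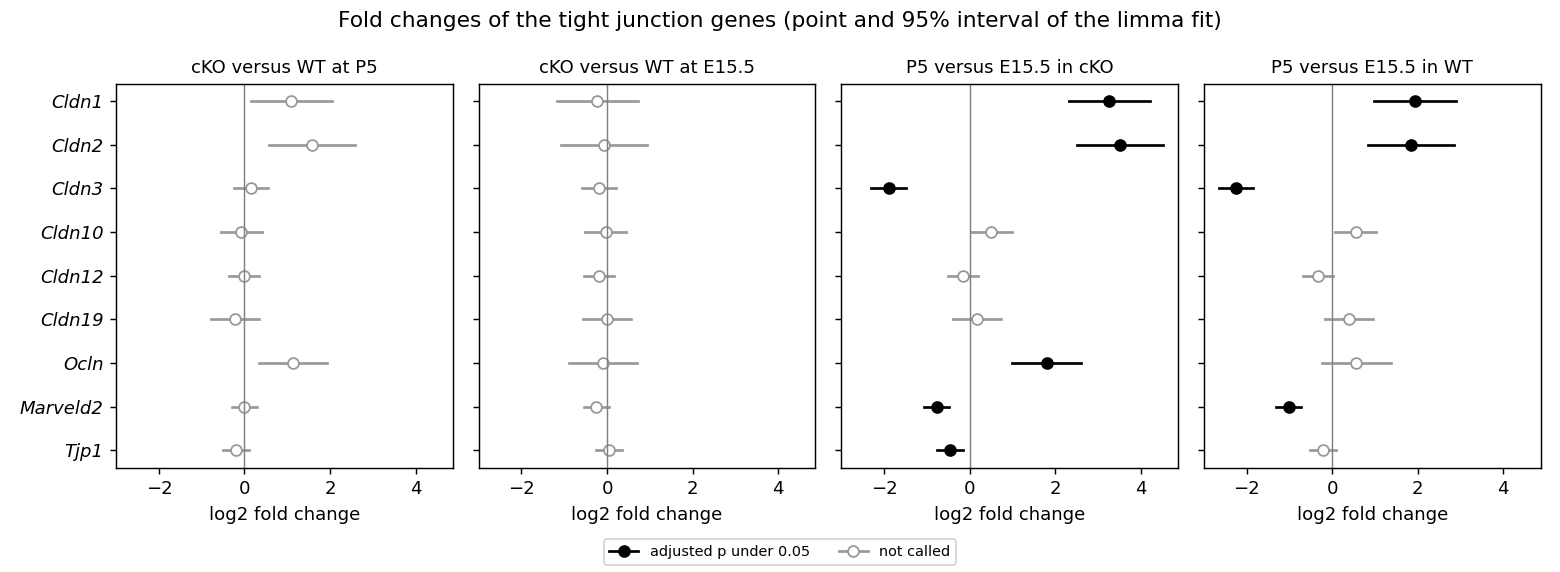
Log2 fold change of each of the 9 genes with its 95% interval from limma, in the genotype comparison at each age and the age comparison in each genotype. Filled points passed an adjusted p of 0.05. No point is filled for genotype, 6 are filled for age in libraries labelled cKO and 4 in WT libraries, and Cldn1 and Cldn2 reach 3.26 and 3.51 in libraries labelled cKO.

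The genes with the most similar pattern were found by the root mean square (RMS) difference over the 12 libraries between log2(value + 1) values centred on each gene's mean. For Cldn1 they were Slc39a12, a zinc transporter (0.195), Car12, a membrane carbonic anhydrase (0.203), and Cldn2 (0.224), where the median over all genes was 1.51. For Cldn2 the same genes came up, Cldn1 at 0.224, Slc39a12 at 0.275 and Car12 at 0.328 (median 1.60). Slc39a12 averaged 572 ± 107 in P5 libraries labelled cKO, 355 ± 217 in P5 WT, 66.3 ± 12.4 in E15.5 libraries labelled cKO and 75.1 ± 21.7 in E15.5 WT (SD, n = 3 each). For Ocln the nearest were Adora2b, an adenosine receptor (0.162), Prps2, an enzyme of nucleotide synthesis (0.181), and Slc35f3 (0.190; median 0.914).

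For Cldn3 the nearest were B3gnt7, a glycosyltransferase (0.153), Grhl2, a transcription factor of epithelia (0.159), and Lypd3 (0.206; median 1.04). For Marveld2 they were Lrp8os2 (0.0929), Cers3, a ceramide synthase of skin (0.110), and Mycbp (0.115; median 0.511). For Tjp1, whose values vary little, near genes included Mkl1 (0.0735) and Ptpn11 (0.0781; median 0.374). B3gnt7, Grhl2, Lypd3, Lrp8os2 and Cers3 were at the floor in all 3 P5 libraries of each genotype, and Mycbp was not. Marveld2 was at the floor there too, and Cldn3 at or near it. For these genes the likeness at P5 is set by the floor. Many genes move with age here, and a gene with a small range lies near many others, so these distances are a description of 12 libraries.

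Of 68 other genes of tight junctions and their polarity complexes, 51 were in the table and all 51 were tested. For genotype limma called 0 of the 51 at either age, against 0.244% of all genes at P5 and 0.00739% at E15.5. An unadjusted p under 0.05 was found for 8 of the 51 at P5 (7.68% of all genes) and 1 at E15.5 (0.362%). At P5, Bves, a membrane protein of cell contacts, averaged 245 ± 31.4 in libraries labelled cKO against 121 ± 20.2 in WT libraries (SD, n = 3 each; 1.01 ± 0.19 SE, limma adjusted p = 0.0891), with no overlap. Cxadr averaged 733 ± 99.9 in P5 libraries labelled cKO against 490 ± 66.6 in P5 WT libraries (adjusted p = 0.245), also with no overlap. Cgn (cingulin) averaged 84.3 ± 16.9 in P5 libraries labelled cKO against 135 ± 30.5 in P5 WT libraries (adjusted p = 0.587), lower without overlap. Mllt4 (afadin) was also lower without overlap, at 1329 ± 64.5 in P5 libraries labelled cKO against 1569 ± 164 in P5 WT libraries (adjusted p = 0.623). These 4 were named after their values were seen. Over all genes, 3.45% were higher without overlap in P5 libraries labelled cKO. The share lower without overlap at P5, and the number of the 51 without overlap, are not given here. Others of the 8 overlapped between genotypes, such as Cldn5, with a lower mean in P5 libraries labelled cKO, and Crb3, with a higher one.

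With age, 14 of the 51 rose and 15 fell in libraries labelled cKO, where 17.6% of all genes rose and 26.1% fell. Their median log2 fold change was -0.14, against -0.08 over all genes. In WT libraries 12 rose and 15 fell, where 15% of all genes rose and 23.2% fell, and the median was -0.25 against -0.07. Of the 8 genes listed as other claudins, 5 fell and 1 rose in each genotype, beside falls of 26.1% of all genes in libraries labelled cKO and 23.2% in WT libraries. The 8 include the claudin domain gene Cldnd1. It was among the falls, by -0.42 in libraries labelled cKO and -0.43 in WT libraries on the log2 scale. The surface epithelium genes given above fell with them, and with their level as a covariate 1 of the 8 fell and 1 rose in each genotype. That level separated the ages without overlap, so these counts cannot tell it from age. The shares of all genes called with this covariate are not given here, so the lower count is not shown to be particular to claudins. Cldn4, the neighbour of Cldn3, was at the floor in all P5 libraries labelled cKO against 346 ± 47.4 in E15.5 libraries labelled cKO, and averaged 50.4 ± 0.635 in P5 WT libraries against 379 ± 69.1 in E15.5 WT libraries (-2.87, limma adjusted p = 1.97e-06). Cldn6, a claudin of embryonic epithelia, was at the floor in all P5 libraries against 186 ± 52.5 in E15.5 libraries labelled cKO and 175 ± 21.5 in E15.5 WT libraries. Cldn7 stayed at the floor in P5 WT libraries against 92.4 ± 12.4 in E15.5 WT libraries (adjusted p = 0.000624).

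The 1 claudin that rose was Cldn5, the claudin of blood vessel endothelium. It averaged 1795 ± 390 in P5 libraries labelled cKO against 338 ± 11.02 in E15.5 libraries labelled cKO (2.38, limma adjusted p = 3.50e-05), and 2732 ± 909 in P5 WT libraries against 347 ± 17.1 in E15.5 WT libraries (2.92, adjusted p = 1.15e-05). The endothelial adhesion genes Jam2 and Esam rose too, Jam2 by 1.83 and Esam by 1.38 in libraries labelled cKO and by 2.05 and 1.74 in WT libraries on the log2 scale. The summed level of 15 endothelial genes moved with them, at 22441 to 41829 in P5 libraries labelled cKO against 11518 to 14031 in E15.5 libraries labelled cKO, and 26254 to 54570 in P5 WT libraries against 12460 to 13970 in E15.5 WT libraries. Its part in these rises was not tested.

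Of the 12 other transmembrane genes, 7 rose and 1 fell in libraries labelled cKO, and 6 rose and 1 fell in WT libraries, where rises covered 17.6% and falls 26.1% of all genes in libraries labelled cKO, and 15% and 23.2% in WT libraries. With the surface epithelium level as a covariate, 3 rose and 0 fell in libraries labelled cKO, and 2 rose and 0 fell in WT libraries. Ildr2, of the angulin family at tricellular contacts, averaged 972 ± 154 in P5 libraries labelled cKO against 285 ± 31.0 in E15.5 libraries labelled cKO, and 781 ± 120 in P5 WT libraries against 274 ± 24.2 in E15.5 WT libraries. F11r (JAM-A) averaged 961.5 ± 323 in P5 WT libraries against 394 ± 11.9 in E15.5 WT libraries (1.22, limma adjusted p = 0.00353). Of the 31 scaffold and polarity genes, 6 rose and 9 fell in libraries labelled cKO, and 5 rose and 9 fell in WT libraries, shares near those of all genes. With the surface epithelium level as a covariate, 1 rose and 1 fell in libraries labelled cKO, and 1 rose and 0 fell in WT libraries. The polarity gene Llgl2 rose by 1.81 in libraries labelled cKO and 1.70 in WT libraries on the log2 scale. Amot and Pard6g fell in both genotypes, Mpdz and Pard3 were among the largest falls in libraries labelled cKO, and Prkci (atypical protein kinase C) in WT libraries. Over all 51, with the surface epithelium level as a covariate, 5 rose and 2 fell in libraries labelled cKO, and 4 rose and 1 fell in WT libraries. With the lens level, 6 rose and 10 fell in libraries labelled cKO. The surface epithelium level separated the ages without overlap in both genotypes, and the lens level did so in libraries labelled cKO. Counts with these covariates therefore cannot tell the levels from age. The shares of all genes called in these covariate fits are not given here. Lower counts in them are thus not shown to be particular to these lists.

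**Figure D4:**
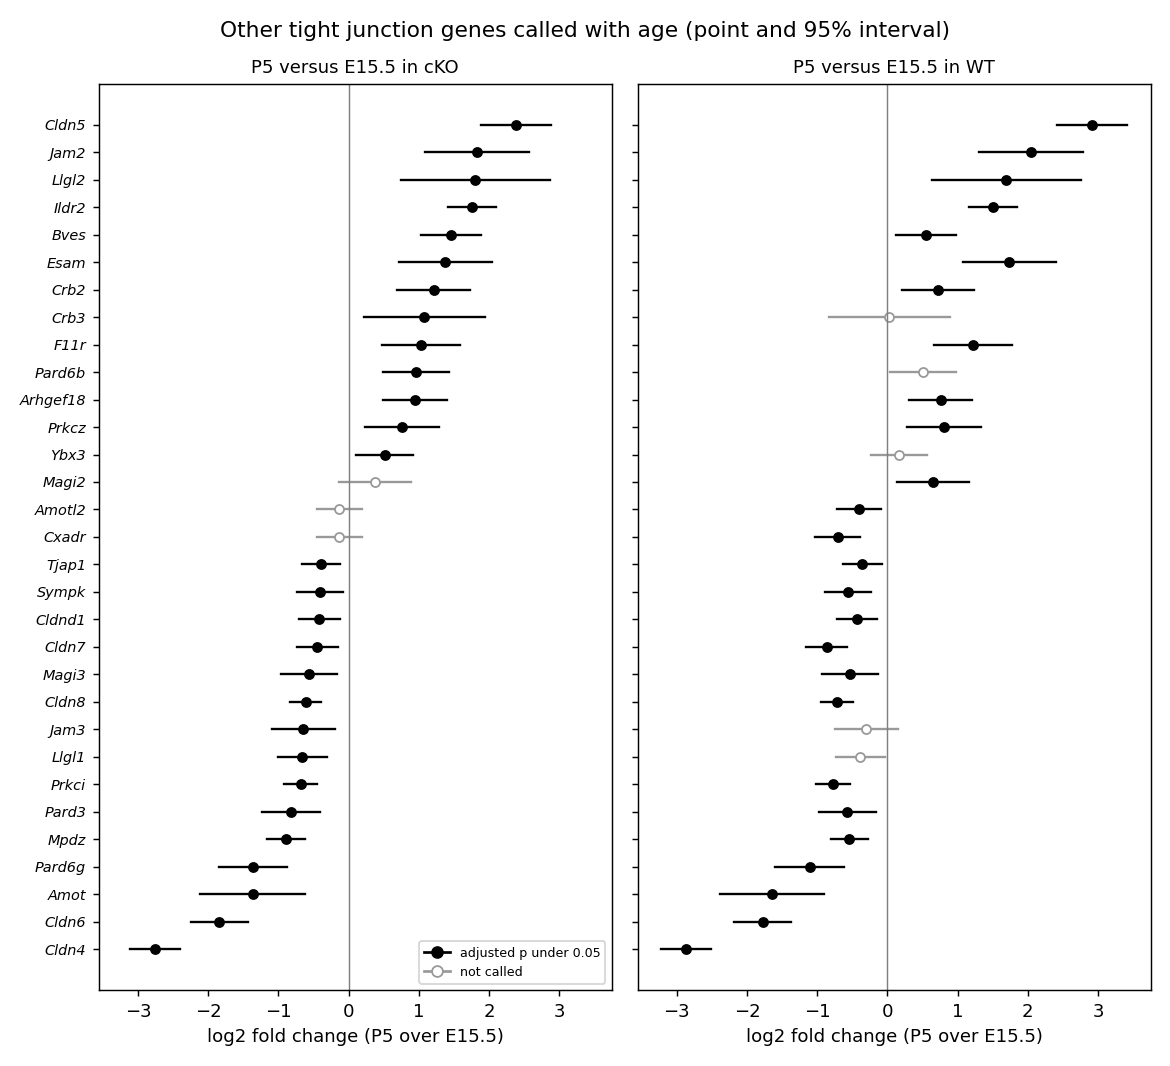
Log2 fold change (P5 over E15.5) with 95% interval for 31 of the 32 other tight junction genes called with age in at least 1 genotype, in libraries labelled cKO and in WT libraries. Cldn5 stands highest at 2.38 in libraries labelled cKO and 2.92 in WT libraries, and Cldn4 lowest at -2.76 in libraries labelled cKO and -2.87 in WT libraries.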

How the data were processed

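Polyadenylated RNA of RPE was sequenced in 12 libraries, assigned to 4 groups by title. Titles call the knockout libraries kd, and the genotype field calls them cKO. Per the submitters' processing notes, TopHat2 2.0.10, HTSeq and mm10 were used. The deposited table holds signal values: gene counts that the authors quantile-normalised and floored at 50, per the labels. All 12 columns hold the same sorted values (largest difference 0), with 1376 values, or 9.87%, at the floor in each. All columns were mapped to a sample (0 left over). The sources used here do not give the annotation release, the strand setting or the sequencing depth, so values carry no counting interval.

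Values were taken as log2(value + 1) and fitted over all 12 libraries with 1 mean per group, in limma 3.58.1 (R 4.3.3, eBayes with trend). Limma's tests were two-sided. The Benjamini-Hochberg adjustment ran over the 13523 genes with 3 or more libraries above the floor, and an adjusted p under 0.05 made a call. Fold changes on this scale understate those of low genes. Exact permutation tests of 3 against 3 libraries can reach no p below 0.1. The labels do not say that replicates were separate animals, so p-values measure the spread between these libraries. Where only the lower group has libraries at the floor, in part or in all, a fold is a lower bound. The spread of a group at the floor is not measured, so the limma p-value of such a gene can be too small. Marker levels are sums or mean log2(value + 1) of fixed lists. The text names all 9 members in each comparison, of the other tight junction genes up to 6 called in each direction, and for each called member the 3 genes nearest in pattern, without predicted genes; some genes that met these rules are not reported here. The 9 genes and the lists were chosen with earlier results of these data known. The scripts were tested on simulated data. Sequences are from RefSeq (GRCm38.p6) and gene positions from GENCODE M21. Alternatives covered the pseudocount, filter, variance trend, library weights, replicate block, marker covariates, groups in the fit and each library left out.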

Additional observations from a re-analysis of the deposited data

How the results depend on the processing

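The number of the 9 genes called was 0 for genotype at P5, 0 at E15.5 and 0 for the interaction, 6 for age in libraries labelled cKO and 4 in WT libraries. Leaving out each library in turn gave 0 throughout for genotype at either age and for the interaction, 5 to 7 for age in libraries labelled cKO and 4 to 6 in WT libraries. For genotype at P5, the count was 1 with the photoreceptor level as a covariate and 3 with the melanosome level. For age in WT libraries it was 9 with limma's library weights and 2 with the melanosome level, which itself separated the ages there. The melanosome covariate and the fit without the P5 library of highest photoreceptor level in each genotype were added after the data were seen. The causes of these shifts were not tested. Shares of all genes called under the alternatives, the block fit below included, are not given here. A shift in these counts is therefore not shown to be particular to the 9 genes. Of the 10 values called for single genes, 0 changed sign in the 24 alternatives and 7 were lost in at least 1; of the 35 not called, 15 changed sign in at least 1.

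With the replicate number as a block within age, the counts were 0 for genotype at both ages, 7 for age in libraries labelled cKO and 5 in WT libraries, as Cldn10 was added (adjusted p by limma = 0.0281 in libraries labelled cKO and 0.0232 in WT libraries). Deviations of same-numbered libraries correlated over genes at 0.78, -0.30 and 0.19 at P5 and -0.02, 0.27 and -0.02 at E15.5. Differently numbered libraries gave -0.74 to 0.71 at P5 and -0.22 to 0.22 at E15.5. With so few libraries, these values cannot tell whether the numbers mark pairs. The floor, unknown depth and 3 libraries a group limit Cldn10, Cldn19 and Marveld2 most, which lay near 50 in most libraries.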
